A study of Mus musculus with 6 samples.

Results

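The genes that carry vascular endothelial growth factor (VEGF) signaling, together with chondromodulin, were followed in chondrocytes of the mouse knee at a fetal and an adult stage. The 9 genes were taken by symbol from the deposited matrix, which lists 22032 genes. They were the ligands Vegfa, Vegfb, Vegfc and Pgf, the receptor tyrosine kinases Flt1 and Kdr, the neuropilins Nrp1 and Nrp2, and Cnmd, the gene of chondromodulin, whose older symbol is Lect1. All 9 were found, and 8 of them were among the 13125 genes whose mean over the 6 samples reached 1 TPM (TPM is a gene's share of all transcripts, scaled to transcript length). Kdr was under that mean and was described but not tested.

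RNA-seq had been made from 3 embryonic and 3 adult samples of mouse knee cartilage, each a biological replicate according to the series' design text. The embryonic samples came from day E16.5 (the labels write 16.5 wks) and the adult samples from male B6 mice of 2 months. At both stages the cells had been sorted as chondrocytes by flow cytometry, as CD31-CD45-Ter119-ALP-BMPR1B+ cells, so cells with the endothelial protein CD31, blood cell proteins or alkaline phosphatase had been gated out and cells with the bone morphogenetic protein receptor BMPR1B kept. The labels name no altered gene and no treatment in either group. The strain and sex of the embryos and the number of animals in a sample are not given in the sources used here, so stage cannot be told apart from these. The deposited values were log2(TPM + 1), from which the sequencing depth is lost. Counting error is therefore unknown and the precision rests on the spread between 3 samples (SD). In such sorted bulk samples, fewer cells that express a gene and less RNA per cell cannot be told apart.

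VEGF-A is a secreted factor that drives the growth of blood vessels by binding VEGFR2, the receptor tyrosine kinase encoded by Kdr. VEGFR1, encoded by Flt1, binds VEGF-A, VEGF-B and placental growth factor (Pgf) and can act as a decoy, while VEGF-C acts mainly on lymphatic vessels through the receptor of Flt4. Neuropilins are coreceptors that bind both VEGFs and class 3 semaphorins. Cartilage is largely free of vessels: hypertrophic chondrocytes of the growth plate are a known source of VEGF-A when vessels invade it, and chondromodulin is a cartilage matrix glycoprotein that inhibits endothelial growth.

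Of the 8 genes tested, 6 passed the threshold (limma, adjusted p under 0.05), where 45.3% of all 13125 genes passed. In adult samples 5 were lower (Vegfa, Vegfc, Flt1, Nrp1 and Cnmd), with a background of 21.4% of genes lower, and 1 was higher (Nrp2), with a background of 23.9% higher. The embryonic and adult ranges did not overlap for these 6 genes, as for 56.5% of all genes tested. The median log2 difference, adult minus embryonic, was -2.03 over the 8 genes and 0.16 over all genes tested. Relative to that median of all genes, the difference was -2.25 for Vegfa, -3.63 for Flt1, -2.83 for Nrp1, -2.84 for Cnmd and 0.58 for Nrp2. Summed over the 9 genes, the level was 3078, 3201 and 2962 TPM in embryonic chondrocytes and 719, 736 and 863 TPM in adult chondrocytes.

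**Figure D1:**
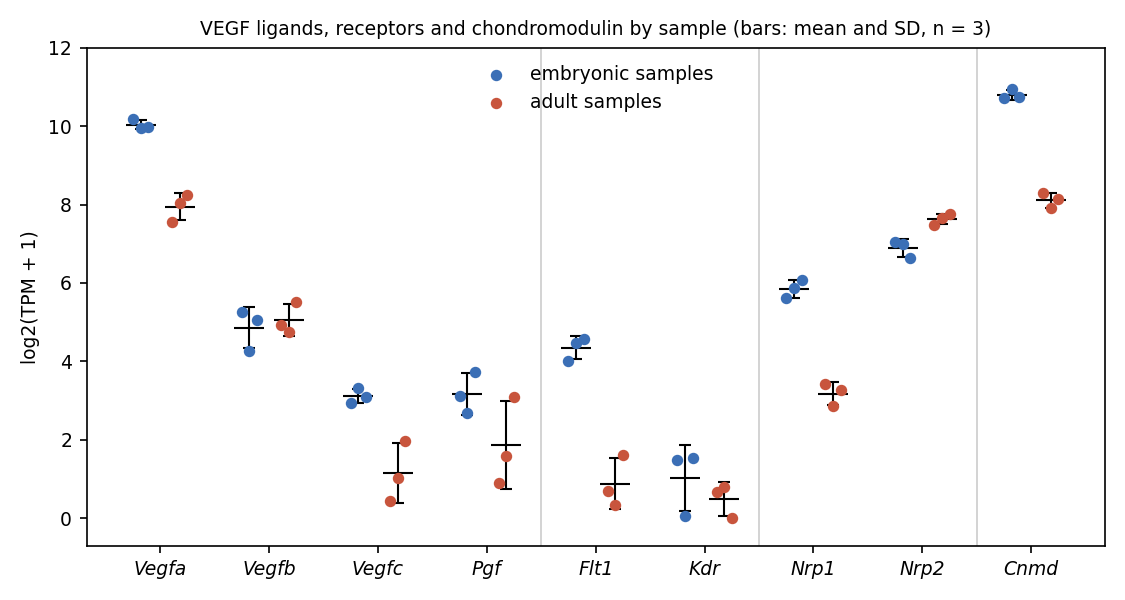
Level of each of the 9 genes in every sample, as log2(TPM + 1), with embryonic samples in blue and adult samples in red and the mean and SD of 3 samples as bars. Cnmd and Vegfa stand highest at both stages, and Vegfb, Pgf and Kdr are the genes whose embryonic and adult ranges overlap.

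The stretches just upstream of a RefSeq start of Cnmd, Vegfa, Flt1 and Nrp1 are shown, to set the letters beside some of the genes that fell. Each holds the 250 bases before the transcription start in RefSeq's annotation of GRCm38.p6, written 5′ to 3′ on the gene's strand. Capitals mark the core of the hypoxia response element bound by hypoxia-inducible factors (ACGTG or GCGTG, on either strand) and the GC box bound by SP family factors (GGGCGG, on either strand); adjoining matches can share bases. The Cnmd window is chr14:79662184-79662433 (minus strand), the Vegfa window chr17:46032378-46032627 (minus strand), the Flt1 window chr5:147726012-147726261 (minus strand) and the Nrp1 window chr8:128358823-128359072 (plus strand). GENCODE starts Nrp1 at chr8:128358604, before the RefSeq start used here, so the Nrp1 window lies inside the gene as GENCODE places it.
Cnmd: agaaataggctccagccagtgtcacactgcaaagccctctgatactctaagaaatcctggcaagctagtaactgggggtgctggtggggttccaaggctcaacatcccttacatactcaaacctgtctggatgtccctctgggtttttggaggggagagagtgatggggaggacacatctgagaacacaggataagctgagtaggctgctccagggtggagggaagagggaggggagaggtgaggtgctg
Vegfa: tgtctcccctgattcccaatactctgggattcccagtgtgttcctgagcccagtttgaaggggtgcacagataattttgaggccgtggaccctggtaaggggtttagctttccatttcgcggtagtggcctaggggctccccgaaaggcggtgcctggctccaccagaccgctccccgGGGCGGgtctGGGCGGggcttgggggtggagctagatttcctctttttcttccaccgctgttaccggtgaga
Flt1: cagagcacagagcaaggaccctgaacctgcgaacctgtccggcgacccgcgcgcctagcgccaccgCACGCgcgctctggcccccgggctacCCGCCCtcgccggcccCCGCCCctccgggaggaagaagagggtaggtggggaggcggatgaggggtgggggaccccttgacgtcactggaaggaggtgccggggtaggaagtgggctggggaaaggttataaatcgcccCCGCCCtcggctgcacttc
Nrp1: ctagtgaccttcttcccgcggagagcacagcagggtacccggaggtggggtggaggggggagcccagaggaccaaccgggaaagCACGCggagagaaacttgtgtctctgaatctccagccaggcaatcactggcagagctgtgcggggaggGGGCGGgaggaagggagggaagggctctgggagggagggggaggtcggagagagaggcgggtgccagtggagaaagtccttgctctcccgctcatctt
The Cnmd window held no CG dinucleotide, like 7.86% of all 32807 windows of this length, and its GC content was 54.0%. The Flt1 window was richer, with 70.4% GC against a median of 52.4% over all windows, and held 1 hypoxia response element core, 184 bases before the start, and 3 GC boxes. It was the only window of the 9 genes with a TATA box (TATAAA), which lay 31 bases before the start and was found in 12.4% of all windows. The Nrp1 window held 1 hypoxia response element core and 1 GC box, and the Vegfa window printed here held 2 GC boxes and no hypoxia response element core. A second Vegfa start, whose window (chr17:46025164-46025413) overlaps Vegfa exons and is not printed, had 2 hypoxia response element cores, 218 and 211 bases before that start. The window of Vegfc, which also fell, overlaps no exon and is not printed either. It had 71.6% GC, 2 GC boxes and no hypoxia response element core. Over all 11 windows of the 9 genes, 7 held the hypoxia response element core and 9 the GC box, against 38.6% and 32.7% of all windows. The core of the SOX site (ACAAT, on either strand), present in 27.7% of all windows, was in none of the 11. All 11 windows were above the median GC content of 52.4%, from 54.0% (Cnmd) to 76.4% (Vegfb). The background was not matched for GC content, so these shares cannot be read as a trait of the 9 genes. A match is a description of letters and is not evidence that a factor bound there. Bases farther upstream were not searched, so a window without a match does not show that the gene lacks the element.

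Among the ligands, Vegfa was by far the most abundant at both stages and fell in the adult. Vegfa (ENSMUSG00000023951, chr17:46016993-46032369, minus strand, GRCm38) was at 1154, 996 and 1013 TPM in embryonic samples 1 to 3 and at 188, 260 and 302 TPM in adult samples 1 to 3. All embryonic samples were above all adult samples, and the mean level was 4.21-fold higher in embryonic chondrocytes. The log2 difference, adult minus embryonic, was -2.09 ± 0.18 (SE, limma, adjusted p = 3.8e-05). Vegfa held rank 126 of the 22032 genes by mean TPM in embryonic chondrocytes and rank 604 in adult chondrocytes.

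Vegfb, whose product binds VEGFR1 and is known for roles outside vessel growth, gave overlapping values. Its level was 37.0, 18.2 and 32.3 TPM in embryonic chondrocytes and 29.4, 25.8 and 44.8 TPM in adult chondrocytes. The log2 difference was 0.21 (95% interval -0.51 to 0.92, limma adjusted p = 0.62), so changes within that interval could not be seen here. It was -0.090 without embryonic sample 2 and -0.023 without adult sample 3, so its sign rests on single samples.

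Vegfc was a low gene that fell further. It stood at 6.70, 8.96 and 7.47 TPM in embryonic chondrocytes and at 0.362, 1.03 and 2.90 TPM in adult chondrocytes, and the ranges did not overlap. The log2 difference was -1.97 ± 0.49 (SE, limma, adjusted p = 0.011). The call was lost when no filter on low genes was applied (adjusted p = 0.058, the highest over the alternatives, which began at 0.0044).

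Pgf, which encodes a ligand of VEGFR1, was at 7.62, 5.39 and 12.4 TPM in embryonic chondrocytes and at 0.865, 2.02 and 7.54 TPM in adult chondrocytes. The ranges overlapped, since adult sample 3 lay above embryonic sample 2. The log2 difference was -1.31 (95% interval -2.67 to 0.05, limma adjusted p = 0.10) and did not pass the threshold. Without adult sample 3 it was -1.93 (adjusted p = 0.018), and over all alternatives the adjusted p lay between 0.018 and 0.31.

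Within the ligands, Vegfa transcripts made up 95.7%, 96.8% and 95.1% of the summed TPM of the 4 ligands in embryonic chondrocytes and 86.0%, 90.0% and 84.5% in adult chondrocytes. Vegfb made up 1.77% to 3.07% in embryonic chondrocytes and 8.92% to 13.4% in adult chondrocytes. The ranges of both shares were separate, and no test was run on them.

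Both receptor kinases were far below Vegfa. Flt1 (ENSMUSG00000029648, chr5:147561604-147726011, minus strand) was at 15.2, 21.2 and 22.7 TPM in embryonic chondrocytes and at 0.630, 0.257 and 2.04 TPM in adult chondrocytes. Every adult sample lay under every embryonic sample, and the means differed 20.2-fold. The log2 difference was -3.47 ± 0.45 (SE, limma, adjusted p = 3.7e-04), larger in size than that of 96.8% of all genes tested. The pseudocount of 1 compresses adult values this low, and the log2 difference was -4.57 with a pseudocount of 0.1. Flt1 encodes a membrane form and a soluble form that traps VEGF-A, and a gene total does not tell them apart.

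Kdr, the main signaling receptor for VEGF-A in endothelium, was near the bottom of the measured range. It stood at 1.80, 0.0347 and 1.92 TPM in embryonic chondrocytes and at 0.593 and 0.732 TPM in adult samples 1 and 2, and was listed at 0 in adult sample 3. Embryonic sample 2 lay under 2 of the adult samples, so the ranges overlapped. On the log2(TPM + 1) scale, Flt1 exceeded Kdr within a sample by 3.32 ± 0.98 (SD, n = 3) at the embryonic stage and 0.39 ± 1.08 (SD, n = 3) in adult chondrocytes. The change of this gap was -2.93, and the exact two-sided permutation test gave p = 0.1, the smallest p that 3 against 3 samples allow. With a pseudocount of 0.1 the change was -3.51 with an exact p of 0.3.

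The sorting had removed CD31+ cells. The 14 endothelial markers other than Erg and Tek summed to 14.9 to 31.7 TPM in embryonic and 16.5 to 25.8 TPM in adult samples. Among them, Esm1 reached 9.02 TPM in embryonic sample 1 and 7.54 TPM in adult sample 1. Egfl7 reached 6.53 TPM in embryonic sample 2 and 4.40 TPM in adult sample 2. Neither Esm1 nor Egfl7 passed the threshold. Pecam1, which encodes CD31, was at 1.48, 1.29 and 1.75 TPM in embryonic chondrocytes and at 2.79, 6.87 and 2.86 TPM in adult chondrocytes (log2 difference 0.96, limma adjusted p = 0.12). Cdh5, the cadherin of endothelial junctions, was at most 0.283 TPM in embryonic chondrocytes and at most 2.36 TPM in adult chondrocytes, and Robo4 and Sox17 were listed at 0 in all 3 embryonic samples. Pecam1 was lowest in the 3 embryonic samples, where Flt1 was highest, while Tek, given below, was highest in those samples too. Emcn and Esam, which did not pass, reached 10.4 and 6.70 TPM in embryonic sample 3, the sample with the most Flt1. In the other samples both were at most 2.29 TPM. Of the 16 endothelial markers, 9 were tested, 2 were lower in adult chondrocytes and 1 was higher (33.3% in all, against 45.3% of all genes). The 2 lower ones were Erg (71.3, 75.5 and 58.9 TPM against 21.3, 23.8 and 22.9 TPM), a transcription factor, and Tek (9.21, 9.24 and 19.0 TPM against 0.121, 0.792 and 0.889 TPM), the angiopoietin receptor. The summed level of the list was 95.4 to 110 TPM in embryonic and 40.3 to 47.6 TPM in the adult samples, and 24.2 to 50.7 and 17.4 to 25.9 TPM without Erg, the most abundant of them in the embryo. Markers of pericytes and smooth muscle fell as well: 7 of 8 tested (87.5%, against 45.3% of all genes) were lower in adult chondrocytes. Kcnj8 was listed at 0 in all adult samples. The list summed to 391 to 414 TPM in embryonic and 127 to 160 TPM in adult samples. Cspg4 made up most of the adult sums, at 145, 112 and 117 TPM. It fell by 0.59 on the log2 scale (limma adjusted p = 0.010), against a list median of -2.49, so the sums understate the fall of the others. The part of such cells in the Flt1 and Nrp1 results was not tested.

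**Figure D2:**
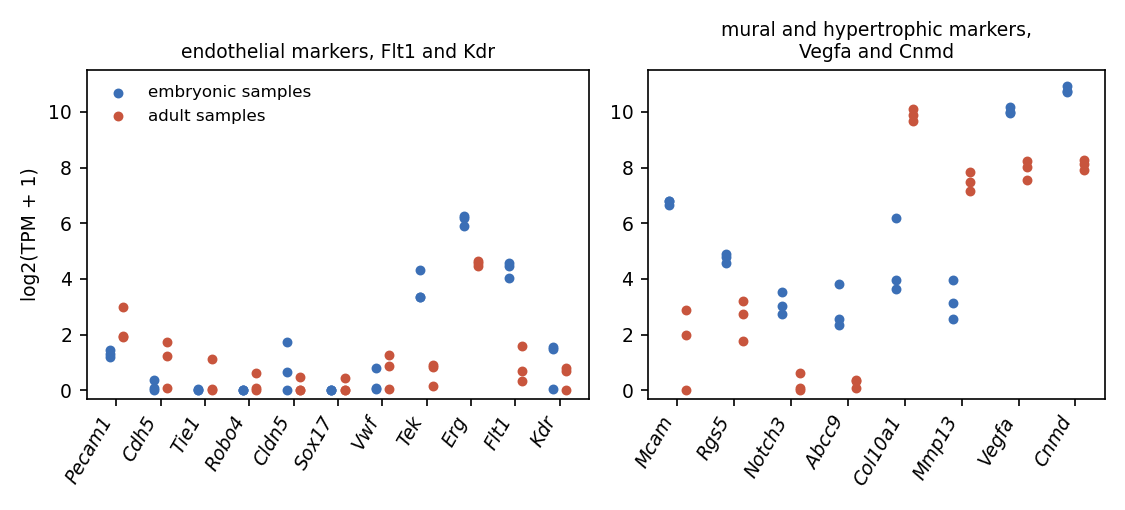
Levels as log2(TPM + 1) in each of the 3 embryonic (blue) and 3 adult (red) samples. The left panel shows some of the 16 endothelial markers beside Flt1 and Kdr, and leaves out Egfl7, Emcn, Esam and Esm1 among others. The right panel shows mural cell markers and the hypertrophic chondrocyte markers Col10a1 and Mmp13, beside Vegfa and Cnmd. Col10a1 and Mmp13 were higher in the adult, while 2 of the 6 hypertrophic markers tested were lower. Most of the endothelial markers shown lie under Flt1 in embryonic chondrocytes, while Erg lies above it.

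The neuropilins moved in opposite directions. Nrp1 (ENSMUSG00000025810, chr8:128358604-128503363, plus strand), a coreceptor of VEGF-A and of semaphorin 3A, was at 48.4, 57.2 and 66.8 TPM in embryonic chondrocytes and at 9.71, 6.22 and 8.65 TPM in adult chondrocytes. The embryonic mean was 7.01-fold higher, with no overlap, and the log2 difference was -2.68 ± 0.25 (SE, limma, adjusted p = 7.2e-05). Nrp2 (ENSMUSG00000025969, chr1:62703285-62818695, plus strand), which is known as a coreceptor for VEGF-C and for semaphorin 3F, was at 131, 127 and 98.9 TPM in embryonic chondrocytes and rose to 178, 201 and 214 TPM in adult chondrocytes. The adult mean was 1.66-fold higher, every adult sample lay above every embryonic sample, and the log2 difference was 0.73 ± 0.15 (SE, limma, adjusted p = 0.0046).

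The sum of the 2 neuropilins was higher in every adult sample than in every embryonic sample, with no test run on it. The gap was narrow at its nearest, 187 TPM in adult sample 1 against 184 TPM in embryonic sample 2. The sum was not recomputed under other scalings. Nrp1 and Nrp2 together were at 180, 184 and 166 TPM in embryonic chondrocytes and at 187, 207 and 223 TPM in adult chondrocytes. Nrp1 made up 26.9%, 31.1% and 40.3% of the neuropilin TPM in embryonic chondrocytes and 5.18%, 3.00% and 3.89% in adult chondrocytes. Nrp2 exceeded Nrp1 within a sample by 1.04 ± 0.44 (SD, n = 3) on the log2(TPM + 1) scale in embryonic and by 4.45 ± 0.37 (SD, n = 3) in adult chondrocytes. This gap was chosen after the values were seen, and no test was run on it. The Nrp2 difference was 0.59 under median-of-ratios scaling and was 0.83 when the 20 highest genes were left out of the total.

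**Figure D3:**
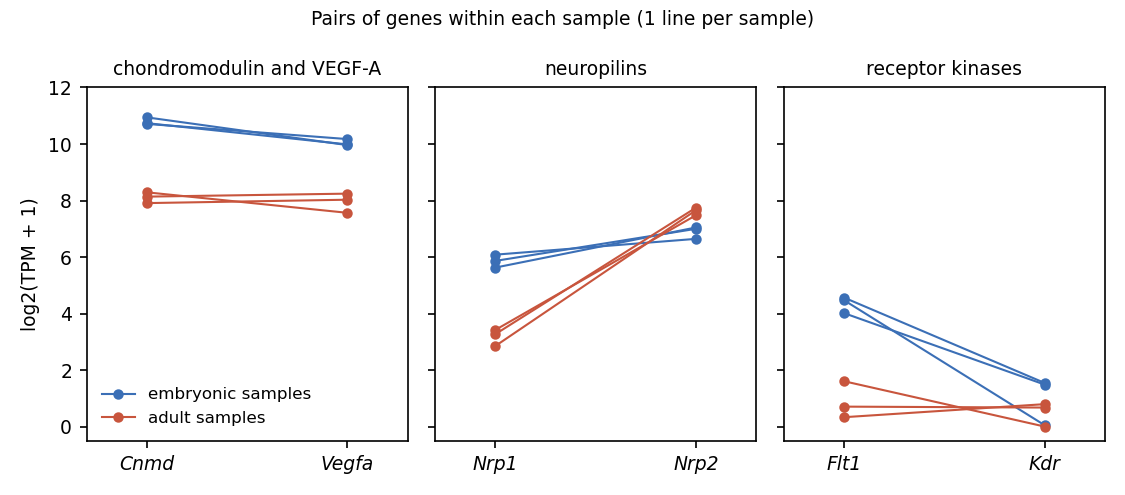
Levels of pairs of genes within each sample as log2(TPM + 1), with 1 line per sample, embryonic in blue and adult in red. The Nrp1 to Nrp2 lines are steeper in all 3 adult samples, and the Cnmd to Vegfa lines run down in all 3 embryonic samples and up in 2 of the 3 adult samples.

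Chondromodulin transcripts were the most abundant of the 9 genes in embryonic chondrocytes and fell in the adult. Cnmd (ENSMUSG00000022025, chr14:79637690-79662170, minus strand) was at 1676, 1968 and 1707 TPM in embryonic chondrocytes and at 312, 239 and 281 TPM in adult chondrocytes. No adult sample came near an embryonic one. The embryonic mean was 6.43-fold higher, and the log2 difference was -2.69 ± 0.14 (SE, limma, adjusted p = 2.2e-06), the smallest adjusted p of the 8 genes. By mean TPM Cnmd held rank 62 of 22032 genes in embryonic chondrocytes and rank 533 in adult chondrocytes.

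The inhibitor and the main ligand both fell, and 3 samples against 3 cannot show at a p under 0.05 in an exact test whether the amounts differed. The level of Cnmd over that of Vegfa was 1.45, 1.98 and 1.69 in embryonic chondrocytes and 1.66, 0.920 and 0.929 in adult chondrocytes, so the ranges overlapped. On the log2(TPM + 1) scale Cnmd exceeded Vegfa within a sample by 0.76 ± 0.22 (SD, n = 3) at the embryonic stage and by 0.17 ± 0.48 (SD, n = 3) in adult chondrocytes. The change was -0.59, with p = 0.2 in the exact two-sided permutation test, whose smallest possible p was 0.1. Leaving out single samples gave changes of -0.87 to -0.45.

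**Figure D4:**
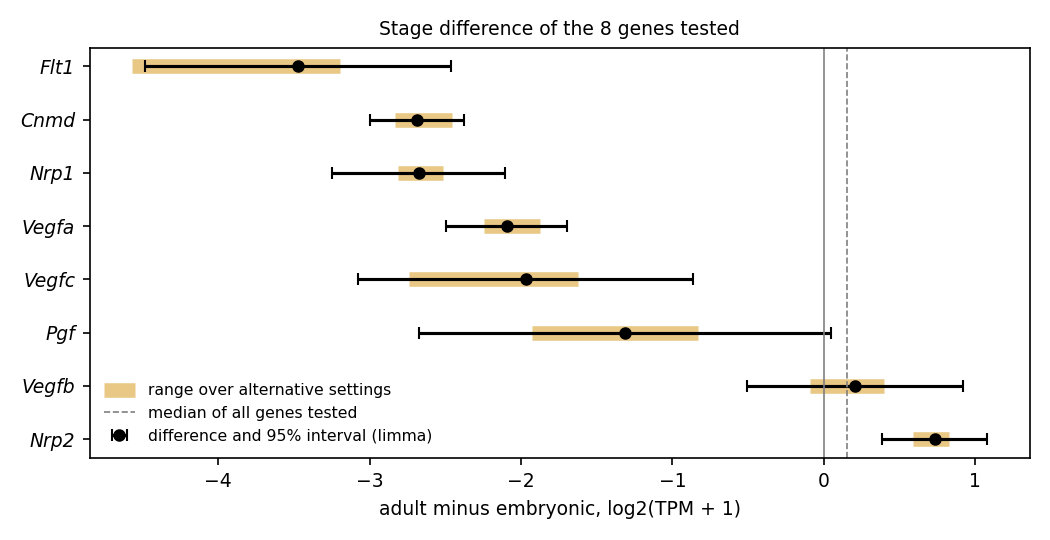
Adult minus embryonic difference in log2(TPM + 1) of the 8 genes tested, with the limma estimate (points), its 95% interval (bars), the range over the alternative settings (shaded) and the median of all genes tested (dashed, 0.16). Flt1, Cnmd, Nrp1, Vegfa and Vegfc lie below 0 with their whole interval, Nrp2 lies above it, and the intervals of Pgf and Vegfb include 0.

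The order of the levels also differed between the stages, read on the TPM scale, which allows for transcript length. In embryonic chondrocytes the order of the mean TPM was Cnmd, Vegfa, Nrp2, Nrp1, Vegfb, Flt1, Pgf, Vegfc and Kdr, and each gene's range was clear of its neighbour's except for Vegfb with Flt1 and Pgf with Vegfc. In adult chondrocytes the order was Cnmd, Vegfa, Nrp2, Vegfb, Nrp1, Pgf, Vegfc, Flt1 and Kdr. The adult ranges of Cnmd, Vegfa and Nrp2 overlapped from each to the next, as did those from Nrp1 down to Kdr, so these neighbours could not be ordered by range. Genes farther apart in a run could be clear of each other: Cnmd lay above Nrp2 in every adult sample, and Nrp1 above Vegfc, Flt1 and Kdr.

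Whether single genes followed the same course was described by the distance between their centred log2(TPM + 1) profiles over the 6 samples, among 13122 genes. For Vegfa the nearest were Ccdc88c (root-mean-square distance 0.068), D16Ertd472e (0.089) and Kdm6b (0.11). Kdm6b, a histone demethylase gene, was at 456, 375 and 443 TPM in embryonic chondrocytes and at 86.3, 113 and 116 TPM in adult chondrocytes. For Cnmd the nearest were Exo1 (0.090), Col9a3 (0.13) and Hivep3 (0.15). Col9a3, a chain of the cartilage collagen IX, was at 2159, 2143 and 2094 TPM in embryonic chondrocytes and at 338, 293 and 278 TPM in adult chondrocytes. Exo1 was at most 7.33 TPM, and its adult values of 0.119, 0 and 0.0947 TPM are compressed by the pseudocount. All these profiles share the stage difference, so nearness over 6 samples says little beyond it.

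The other genes of the pathway were read from lists in the same fit, where 45.3% of all genes passed, 23.9% as higher and 21.4% as lower in the adult. Of 11 other VEGF ligands, receptors and VEGF-binding coreceptors, 9 were tested, 2 (22.2%) were lower in adult chondrocytes and 7 did not pass, with a median log2 difference of -0.20. Leaving the 20 highest genes out of the total gave 1 higher and 2 lower. Itga9, an integrin chain that binds VEGF-C and VEGF-D, fell from 76.9, 59.3 and 60.2 TPM to 10.8, 5.41 and 9.19 TPM (log2 difference -2.85 ± 0.28, SE, adjusted p = 8.9e-05). Sdc1, a heparan sulfate proteoglycan, fell from 164, 147 and 170 TPM to 29.4, 44.3 and 36.0 TPM (log2 difference -2.12 ± 0.18, SE, adjusted p = 3.9e-05). Vegfd did not pass (-0.87, adjusted p = 0.38), nor did Plxnd1, the semaphorin receptor chain that pairs with neuropilins (-0.04, adjusted p = 0.92). Flt4, the VEGF-C receptor, was under the filter, with 0.266 TPM as its highest value in any sample.

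**Figure D5:**
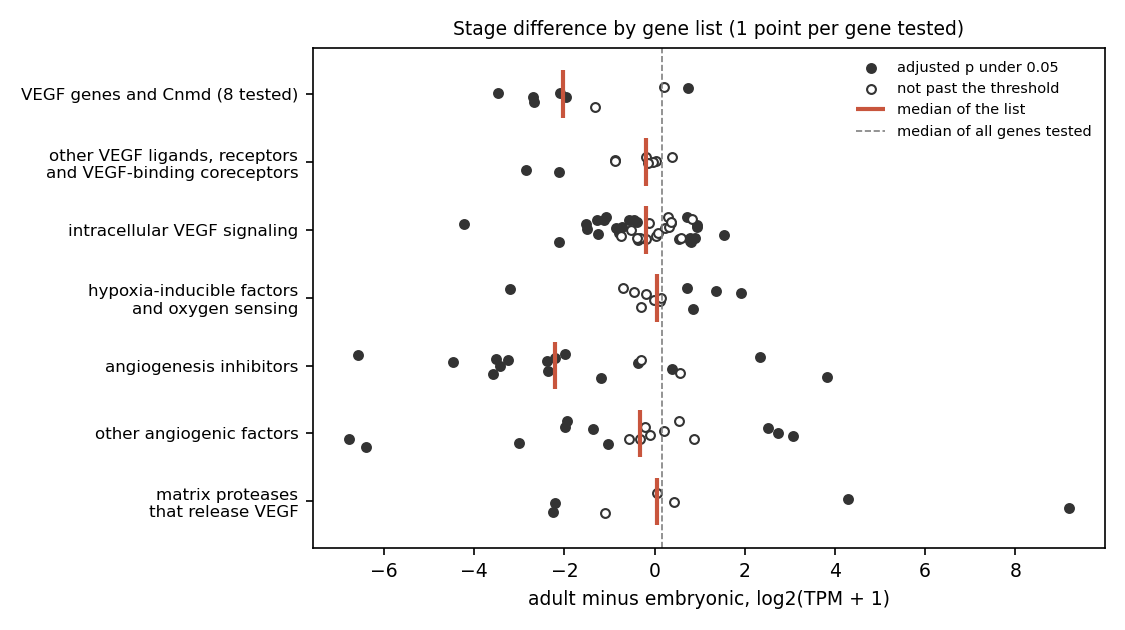
Adult minus embryonic difference in log2(TPM + 1) of each gene tested in 7 lists, filled where the limma adjusted p was under 0.05, with the median of each list (red) and of all genes tested (dashed). The angiogenesis inhibitors have the lowest median of the 6 pathway lists, -2.20, and the median of the other lists lies within 0.5 of 0 except for the VEGF genes and Cnmd themselves (-2.03).

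Of 41 genes of intracellular VEGF signaling, 39 were tested, 9 were higher and 15 lower in adult chondrocytes, with a median of -0.19. The share that passed was 61.5%, against 45.3% of all genes. Nfatc2, a calcium-dependent transcription factor, fell from 152, 134 and 151 TPM to 10.2, 6.81 and 4.36 TPM (-4.23 ± 0.27, SE, adjusted p = 9.8e-06). Rises were smaller, the first by size being that of Ppp3ca, the catalytic chain of the phosphatase calcineurin that activates NFAT factors, from 106, 88.5 and 91.3 TPM to 260, 324 and 251 TPM (1.54 ± 0.15, SE, adjusted p = 7.6e-05). Sphk1, a sphingosine kinase, was lower (-2.11, adjusted p = 0.015, and 0.00051 to 0.12 over the alternatives).

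Hypoxia-inducible factors and the enzymes that sense oxygen control Vegfa in many tissues. All 12 were tested, 4 were higher and 1 was lower in adult chondrocytes, and the median was 0.05. The share that passed, 41.7%, was near the 45.3% of all genes. Median-of-ratios scaling gave 4 higher and 3 lower. Hif1a, the main factor of cartilage, was at 374, 356 and 364 TPM in embryonic chondrocytes and at 242, 354 and 384 TPM in adult chondrocytes, without passing the test (-0.19, adjusted p = 0.41). Epas1, the gene of HIF-2α, rose from 29.8, 34.7 and 25.7 TPM to 133, 114 and 102 TPM (1.92 ± 0.18, SE, adjusted p = 6.9e-05). Hif3a stood at 8.12, 8.78 and 9.12 TPM in embryonic chondrocytes and was listed at 0 in 2 adult samples, with 0.159 TPM in the third (adjusted p = 3.7e-04). Arnt2, a dimer partner, was higher (1.36, adjusted p = 0.036, and 0.025 to 0.12 over the alternatives). Egln3, a prolyl hydroxylase gene that hypoxia is known to induce, was 0.11 apart (adjusted p = 0.85).

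Chondromodulin was not the only angiogenesis inhibitor that fell. Of 19 inhibitors, 17 were tested, 12 were lower and 3 higher (88.2% in all, against 45.3% of all genes), and the median was -2.20. Tnmd, the gene of tenomodulin, the closest relative of chondromodulin and known from tendon, fell from 262, 108 and 162 TPM to 2.11 TPM in adult sample 2 and 0.703 TPM in adult sample 3, and was listed at 0 in adult sample 1 (adjusted p = 1.6e-05). Vash2, a vasohibin, was at 27.3, 24.3 and 39.9 TPM and fell to at most 0.691 TPM (-4.46 ± 0.38, SE, adjusted p = 4.4e-05). Although it stands among the inhibitors, it is known to favour vessel growth in some settings. Col18a1, whose product is cut to endostatin, fell by 2.20 ± 0.23 (SE, adjusted p = 1.2e-04) on the log2 scale. Timp3, a protease inhibitor that also binds VEGFR2, rose from 104, 90.5 and 91.7 TPM to 1392, 1387 and 1289 TPM (3.82 ± 0.12, SE, adjusted p = 1.4e-07). Thbs1, thrombospondin 1, was lower by little (-0.36, adjusted p = 0.030, and 0.0075 to 0.41 over the alternatives), and Serpinf1, the gene of pigment epithelium-derived factor, did not pass (-0.30, adjusted p = 0.35, and 0.030 to 0.89 over the alternatives). Hrg was listed at 0 in all 6 samples. The inhibitors did not all go one way, and the summed TPM of the list was higher in adult chondrocytes (15913 to 17313 against 5421 to 6009), most of it from Sparc.

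Of 20 other angiogenic factors, 17 were tested, 7 were lower and 3 higher in adult chondrocytes (58.8% in all, against 45.3% of all genes), with a median of -0.33. Ptn and Mdk, the related heparin-binding factors pleiotrophin and midkine, moved most. Ptn was at 392, 435 and 520 TPM in embryonic chondrocytes and at 0, 3.04 and 15.8 TPM in adult chondrocytes (adjusted p = 2.6e-04). Mdk was at 383, 376 and 447 TPM in embryonic chondrocytes and at 4.49, 0.517 and 11.9 TPM in adult chondrocytes (-6.40 ± 0.63, SE, adjusted p = 8.8e-05). Angpt1, a ligand of the receptor of Tek, was at 10.8, 10.4 and 8.10 TPM and was listed at 0 in 2 adult samples, with 1.40 TPM in the third (adjusted p = 0.0014). Angptl4, which is induced by fasting and hypoxia in other tissues, rose from 7.37, 12.3 and 7.53 TPM to 97.5, 61.1 and 92.2 TPM (3.08 ± 0.28, SE, adjusted p = 5.7e-05). Fgf2 did not pass (-0.10, adjusted p = 0.73).

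Of 9 matrix proteases that release VEGF from the matrix, 7 were tested, 2 were higher and 2 lower (57.1% in all, against 45.3% of all genes), and the median was 0.06. Median-of-ratios scaling gave 2 higher and 3 lower, and the total without the 20 highest genes, which drops Mmp3 itself, gave 1 higher and 2 lower. Mmp3, stromelysin, rose from 7.76, 7.58 and 13.2 TPM to 6516, 4182 and 7697 TPM (9.19 ± 0.26, SE, adjusted p = 1.1e-07). Mmp13 rose from 4.90, 7.80 and 14.4 TPM to 143, 179 and 226 TPM (4.28 ± 0.34, SE, adjusted p = 2.9e-05). Mmp14, a membrane-bound protease, fell from 522, 428 and 496 TPM to 73.6, 79.4 and 172 TPM (-2.25 ± 0.29, SE, adjusted p = 3.7e-04). Mmp9, the protease known for vessel entry into the growth plate, was at 1.41 to 6.63 TPM over the 6 samples (0.06, adjusted p = 0.94), and Mmp7 and Plg were listed at 0 in all 6 samples.

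The labelled cell type was checked against 15 chondrocyte markers, all of which were tested. The list summed to 28559 to 30334 TPM in embryonic and 36048 to 38559 TPM in adult chondrocytes. In the adult 4 markers were higher and 9 lower (86.7% in all, against 45.3% of all genes). Col2a1, collagen II, was at 14663, 14155 and 15251 TPM in embryonic chondrocytes and at 7084, 3166 and 3869 TPM in adult chondrocytes (-1.73, adjusted p = 0.0011). Over the alternatives the adjusted p of Col2a1 lay between 9.1e-05 and 0.57, the highest being with no filter on low genes. Acan, aggrecan, did not pass (0.61, adjusted p = 0.072, and 0.014 to 0.31 over the alternatives). Sox9, the master factor of chondrocytes, was higher in adult chondrocytes (0.69, adjusted p = 0.010, and 0.0058 to 0.070 over the alternatives). Of the 7 hypertrophic markers, 6 were tested, 4 were higher and 2 lower in adult chondrocytes (100% in all, against 45.3% of all genes). Col10a1, collagen X, rose from 14.5, 72.4 and 11.4 TPM to 814, 949 and 1096 TPM (5.29, adjusted p = 1.4e-04), while Ihh was listed at 0 in all adult samples. Between the stages, Vegfa was lower where Col10a1 was higher, and it went with the 2 hypertrophic markers that were lower. Within the 3 adult samples both rose from sample 1 to sample 3, with Vegfa at 188, 260 and 302 TPM. Embryonic sample 2 had the highest Col10a1 and the lowest Vegfa (996 TPM) of its stage. The part of the makeup of chondrocyte zones in the Vegfa and Cnmd results was not tested.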

How the data were processed

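RNA-seq was measured in 3 embryonic and 3 adult samples of sorted mouse knee chondrocytes. The authors mapped single-end reads to GRCm38, estimated levels with RSEM (version not given in the sources used here) and deposited log2 values, log2(TPM + 1) per Ensembl gene. The labels name a Kapa mRNA-Seq kit, the methods the Nugen Ovation RNA-Seq System V2 with a Kapa LTP kit; use of strand is not stated. All 6 columns were used. TPM has one fixed total per sample, so depth is lost.

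Values were taken back to TPM for display. Stages were compared with limma 3.58.1 (lmFit, eBayes with trend) in R 4.3.3 on log2(TPM + 1), pseudocount 1, for genes whose mean reached 1 TPM. Adjustment was by Benjamini-Hochberg over all 13125 genes, with a threshold of 0.05, and every adjusted p in the text comes from limma. EBSeq, named in the study's methods, needs counts and was not used. Differences on this scale understate the change of low genes. Within-sample gaps were compared by exact two-sided permutation tests. The fit was tested on simulated data.

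The genes studied and the lists were chosen with earlier results of these data known. Named genes were the 9 genes, up to 3 genes of each pathway list with the largest change past the threshold and separate ranges, a fixed set of other list genes, fixed markers and markers at 0 in all samples of a stage. Erg, Tek, Emcn, Esam, Esm1, Egfl7, Cspg4, Sparc, Col1a1, Dmp1, Alpl, Ibsp and the plotted mural markers were named only once their values had been seen. One chondrocyte list, 1 hypertrophic list and lists for endothelial, mural, blood, bone and nerve cells served as markers; the erythroid marker Ahsp was not matched. Symbols and positions came from GENCODE M21, upstream windows from RefSeq's GRCm38.p6, where all 9 genes had a window. Windows that overlap exons were not printed, nor were those of Vegfc and Vegfb, which overlap none. Of the gene bodies, Nrp1 shares exonic bases with Mir1903, and at most 0.619% of the 50-base words of a gene's exons occur in other genes. The labels name no batch. Alternatives are given in the closing section. Python 3.11.15 and pandas 2.3.3 were used for tables.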

Additional observations from a re-analysis of the deposited data

How the results depend on the processing

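Results were recomputed with no low-value filter, a filter at 5 TPM, a pseudocount of 0.1, median-of-ratios scaling, quantile normalization, the total without the 20 highest genes, eBayes without trend, an adjusted p under 0.01, the replicate number as a block and each sample left out in turn. Vegfa, Flt1, Nrp1, Nrp2 and Cnmd kept their direction and their call at an adjusted p under 0.05 in each of the 14 refits. With no filter, with the filter at 5 TPM (which leaves Vegfc untested) or at an adjusted p under 0.01, 5 genes passed, beside 4369 of 22032, 5373 of 10520 and 3718 of 13125 genes in all. Between 6 and 7 of the 8 genes passed with single samples left out, and between 4603 and 5550 of all genes. An adjusted p under 0.01 left 15 of the intracellular signaling genes (24 before) and 3 of the hypoxia genes (5 before). Vegfb turned to -0.090 without embryonic sample 2 and to -0.023 without adult sample 3, its range with single samples left out being -0.090 to 0.40. Vegfc missed the threshold with no filter (adjusted p = 0.058), and Pgf passed it without adult sample 3 (-1.93); the causes were not tested.

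Leaving out single samples gave 17 to 24 intracellular signaling genes, 4 to 5 hypoxia genes, 13 to 15 inhibitors and 4 to 5 proteases past the threshold. Scaling moved the median of all genes from 0.16 to 0.03 (median-of-ratios), 0.09 (quantile) or 0.25 (without the 20 highest genes). The replicate number did not pair the samples: deviations of same-numbered samples correlated at -0.0088, -0.017 and -0.022. With the replicate block 6 of the 8 genes and 5430 of all genes passed. No depth was known, so what depth limits could not be computed; values near 0 TPM, such as those of Kdr, are the least certain, and 6 values of 0 in the matrix stood beside 2 samples of the stage at 20 TPM or more.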

Other observations

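Other cell types were read from their marker lists. Of 8 osteoblast markers, all tested, 4 were higher and 2 lower in adult chondrocytes (75% in all, against 45.3% of all genes). The 4 higher ones were Bglap, Bglap2, Ibsp and Alpl. Bglap and Bglap2, the osteocalcin genes, were listed at 0 in all 3 embryonic samples. Ibsp was at 0.148, 29.6 and 5.07 TPM in embryonic and at 316, 235 and 308 TPM in adult chondrocytes. Alpl encodes the alkaline phosphatase that the sorting gated out. It rose from 15.4, 14.4 and 17.9 TPM to 38.6, 32.7 and 36.0 TPM (log2 difference 1.13, limma adjusted p = 0.0029). The list summed to 4928 to 6014 TPM in embryonic and 568 to 1121 TPM in adult chondrocytes, most of it in the embryo from Col1a1, which fell from 5555, 4862 and 5971 TPM to 170, 603 and 637 TPM (log2 difference -3.75, limma adjusted p = 2.2e-04), and Dmp1 was the other marker that fell. Of 10 leukocyte markers 6 were tested and 2 (33.3%) were higher in adult chondrocytes. The leukocyte list summed to 8.09 to 14.7 TPM in embryonic and 21.6 to 101 TPM in adult chondrocytes, and Tyrobp and Cd52 were listed at 0 in all embryonic samples. None of the 4 erythroid markers tested passed in limma (0 also at an unadjusted p under 0.05), and the list was highest in embryonic sample 1, at 257 TPM. Of 8 markers of neurons and Schwann cells, 4 were tested and 1 (25%) was higher in adult chondrocytes.

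Class 3 semaphorins share the neuropilins with VEGFs, and 2 of them stood in the inhibitor list. Sema3a was at 111, 92.6 and 99.6 TPM in embryonic chondrocytes and at 12.9 to 27.9 TPM in adult chondrocytes (log2 difference -2.37 ± 0.26, SE, limma adjusted p = 1.8e-04). Sema3f was at 43.4, 39.5 and 76.0 TPM in embryonic chondrocytes and at 0.819, 2.72 and 12.5 TPM in adult chondrocytes (-3.52 ± 0.65, SE, limma adjusted p = 0.0027). Both were lower in every adult sample than in every embryonic sample, the direction of Nrp1 and not of Nrp2. Both were picked out once their values had been seen.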
